A study of Mus musculus with 207 samples.

Results

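Mitochondrial-rich and mitochondrial-poor beta cells are the cells at the top and the bottom of the range of mitochondrial transcript content in 207 single cells from mouse pancreatic islets. A cell's mitochondrial share was its summed TPM over the 13 protein genes of the mitochondrial genome, as a percent of its total. The members were chosen by this measured share alone: cells at 15% or above were taken as mitochondrial-rich and cells below 6% as mitochondrial-poor, within each age. This gave 85 of 207 cells: 14 rich and 31 poor of the 138 cells from mice aged 3 months (young), and 23 rich and 17 poor of the 69 cells from mice aged 26 months (old). The 93 young and 29 old cells between the thresholds are called middle cells. All mice were male, the tissue was pancreatic islets, and the labels name no strain, genotype, treatment or animal. Single cells were isolated and their cDNA amplified on a microfluidic circuit, and the values are TPM, which corrects for transcript length and has the same total in every cell. TPM keeps no read depth, so the precision of a single value is unknown. Since no animal is named, each age is 1 sample: the comparisons have no test and no replicate check, and errors are the SD or the range between cells.

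Mitochondria make ATP by oxidative phosphorylation. The mitochondrial genome encodes a small set of core subunits of the respiratory chain and ATP synthase, together with the rRNAs and tRNAs needed to translate them, and all other mitochondrial proteins come from nuclear genes and are imported. In beta cells, ATP made from glucose closes a potassium channel and so sets off insulin release, which ties mitochondrial output to secretion. A high mitochondrial share of transcripts is also widely used in single-cell work as a sign of cells that have lost cytoplasmic RNA.

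Since the share chose the cells, its values are a description. In young rich cells the share had a median of 18.8% (range 15.4 to 28.3%), in young poor cells 4.03% (1.17 to 5.78%). In old rich cells it was 21.7% (15.1 to 33.9%), in old poor cells 5.34% (3.21 to 5.97%). Rich cells made up 10.1% of the young cells (95% Clopper-Pearson interval 5.66 to 16.4%) and 33.3% of the old cells (22.4 to 45.7%). Poor cells made up 22.5% (15.8 to 30.3%) and 24.6% (15.1 to 36.5%). These intervals cover counting error only and leave out the spread between animals. At the thresholds, the nearest young cells lay at 5.78 and 6.03% and at 14.9 and 15.4%, the nearest old cells at 5.97 and 6.07% and at 14.3 and 15.1%.

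**Figure D1:**
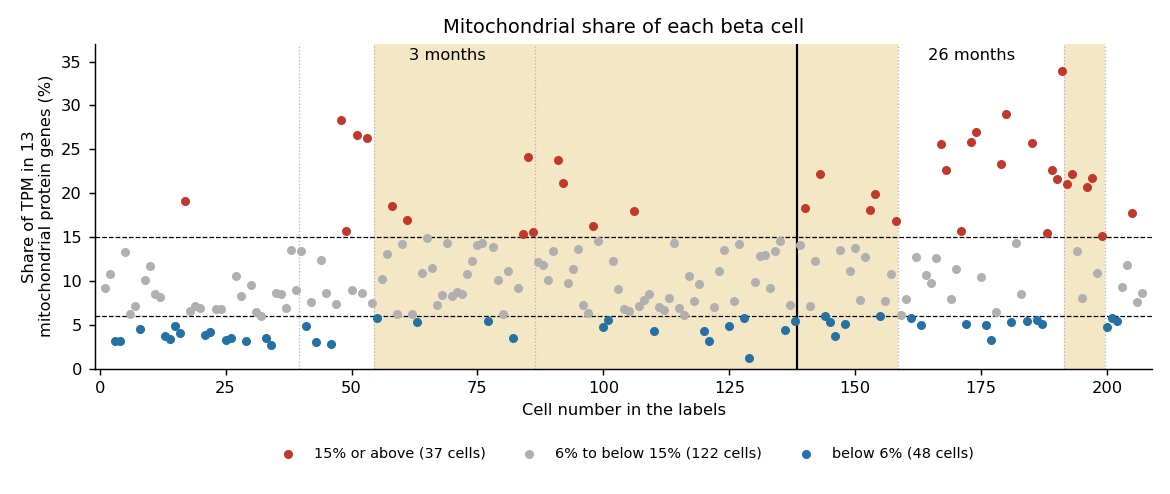
Mitochondrial share of each of the 207 cells (y axis, percent of TPM) against the cell number in the labels (x axis), with dashed lines at 6% and 15%; red points are rich, blue poor and grey middle cells. Dotted lines bound the stretches of cell numbers, and shaded stretches are those with high nuclear noncoding RNA; 5 of the 8 old cells 192 to 199 are rich and 0 are poor, while the young cells 1 to 39 hold 1 rich and 14 poor cells.

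Rich and poor cells were not spread evenly over the cell numbers. Detected nuclear genes, mitochondrial rRNA and tRNA, and 5 abundant nuclear noncoding RNAs (Malat1, Neat1, Meg3, Rian and Kcnq1ot1) shifted at a few cell numbers and split each age into 4 stretches, which the labels do not name as batches. Rich and poor cells numbered 1 and 14 in cells 1 to 39, 4 and 3 in cells 40 to 54, 5 and 4 in cells 55 to 86, and 4 and 10 in cells 87 to 138. In the old cells they numbered 5 and 5 in cells 139 to 158, 12 and 9 in cells 159 to 191, 5 and 0 in cells 192 to 199, and 1 and 3 in cells 200 to 207. By the nuclear noncoding RNAs, cells 1 to 54, 159 to 191 and 200 to 207 form low stretches and all others high stretches. The low stretches hold 5 rich and 17 poor young cells and 13 rich and 12 poor old cells; the high stretches hold 9 and 14 young and 10 and 5 old cells. Values within low and high stretches are given beside many of the pooled ones. In the young low stretches 4 of the 5 rich cells come from cells 40 to 54 and 14 of the 17 poor cells from cells 1 to 39, so there rich against poor and one stretch against the other cannot be told apart, here and in every young low-stretch value below.

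Old rich cells had fewer detected genes than old poor cells. The number of nuclear genes at 1 TPM or above had a median of 3742 (range 2087 to 4773) in old rich cells and 4762 (3637 to 5354) in old poor cells, and 1 of 23 rich cells lay above the poor median. In young cells the medians were closer, 4057.5 (2433 to 5228) in rich and 4291 (2225 to 6075) in poor cells. In the low stretches the young rich cells had a median of 2555 and the young poor cells 3904. Across all cells of an age, the Spearman correlation of detected genes with the share was -0.53 in the 69 old cells and -0.01 in the 138 young cells. The part of detection in the results below was not tested.

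The 85 rich and poor cells carried beta cell transcripts as labelled. The beta cell markers summed to at least 402838 TPM in every rich and poor cell, after removal of mitochondrial genes and rescaling to 1000000 (called nuclear TPM below). Markers of acinar, stellate and red blood cells were at a median of 0 in all 4 classes, and endothelial markers at 0.268 or less. Ductal cell markers were not near 0. Their median sums were 214 and 274 nuclear TPM in young rich and poor cells and 206 and 318 in old ones. The highest ductal sums were 850 and 1740 in young rich and poor cells and 2371 and 7202 in old ones. Macrophage markers reached 12468 nuclear TPM in 1 young rich cell against a median of 1.81 in that class. Somatostatin (Sst), the hormone of delta cells, had a median of 167 nuclear TPM in old rich cells (range 0 to 2054) and 54.9 (0 to 276) in old poor cells, and was 53.5 (2.26 to 658) and 30.5 (0 to 341) in young ones. The log2 ratio of its means was 2.79 in old cells, but -0.31 within cells 139 to 158. The whole delta list had a median sum of 281 in old rich and 104 in old poor cells. The pancreatic polypeptide cell list had median sums of 169 and 69.8 in young rich and poor cells and 384 and 193 in old ones. The alpha cell list had lower median sums in rich cells, 490 against 1006 in young and 521 against 1597 in old cells. Most of this sum is Ttr, which beta cells also express. By single genes the list was not lower, with median log2 ratios of 0.87 in young and 0.04 in old cells. The glucagon gene Gcg had medians of 12.4 and 68.6 nuclear TPM in young rich and poor cells and 28.3 and 19.9 in old ones. Its log2 ratios of means were 0.87 in young cells (-0.77 and 1.66 in the low and high stretches) and 0.43 in old ones (1.16 and -1.20). The part of these other hormone transcripts in the results was not tested.

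The 13 mitochondrial protein genes were high together in rich cells. Their log2 ratios of mean deposited TPM, rich over poor, lay between 1.84 and 2.60 in young cells and between 1.88 and 2.60 in old cells, with medians of 2.39 and 2.10. The rule fixes that the sum is higher, but not that every gene shares in it. mt-Co3, a core subunit of cytochrome c oxidase and the most abundant of the 13, had a median of 50014 TPM (range 29999 to 73002) in young rich and 9828 (2750 to 16064) in young poor cells, with no overlap. In old cells it was 57948 (36216 to 89921) and 13921 (8274 to 19325), again with no overlap. As mt-Co3 holds medians of 25.2 to 27.2% of the sum that chose the cells, its separation follows largely from the rule. mt-Nd4l, a small complex I subunit with the lowest median of the 13 in all 4 classes, had medians of 968 and 136 TPM in young rich and poor cells and 1127 and 228 in old ones.

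The make-up of the mitochondrial transcripts was close in rich and poor cells for mt-Co3, mt-Co2, mt-Cytb, mt-Atp8 and mt-Atp6. mt-Co3 took a median of 27.0% of the 13-gene sum in young rich and 25.2% in young poor cells, and 26.9 and 27.2% in old ones. mt-Co2 took 14.1 and 14.8% in young and 14.7 and 13.4% in old cells, and mt-Cytb, the mitochondrial subunit of complex III, 11.7 and 13.0% in young and 12.4 and 14.9% in old cells. The ATP synthase genes mt-Atp8 and mt-Atp6 took 10.8 and 9.29%, and 7.91 and 6.95%, in young rich and poor cells. Among old cells the order was the other way, with 10.1 and 11.7% for mt-Atp8 and 7.27 and 7.71% for mt-Atp6. Some complex I genes differed more. In old rich and poor cells mt-Nd4 took 7.37 and 5.26% and mt-Nd3 1.81 and 1.30%. In young ones the order turned, with 4.44 and 5.63% for mt-Nd4 and 1.59 and 2.25% for mt-Nd3. mt-Nd6 took 1.91 and 1.62% in young and 1.29 and 0.482% in old cells. Within the old low and high stretches mt-Nd6 was close, at 0.459 and 0.412%, and 1.51 and 1.54%. The ranges of rich and poor cells overlapped for each of these genes.

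mt-Co1, the catalytic subunit of cytochrome c oxidase, took a share of the 13 that differed between the stretches of cell numbers. In young cells it took a median of 6.35% in rich and 2.42% in poor cells, and in old cells 1.34 and 1.48%. Within the low stretches it took 1.74 and 1.39% in young rich and poor cells and 0.844 and 1.18% in old ones. Within the high stretches it took 8.41 and 12.1% in young and 8.10 and 11.4% in old cells. The gap between the stretches was thus wider than that between rich and poor cells, and in the high stretches the median of rich cells was the lower at both ages.

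**Figure D2:**
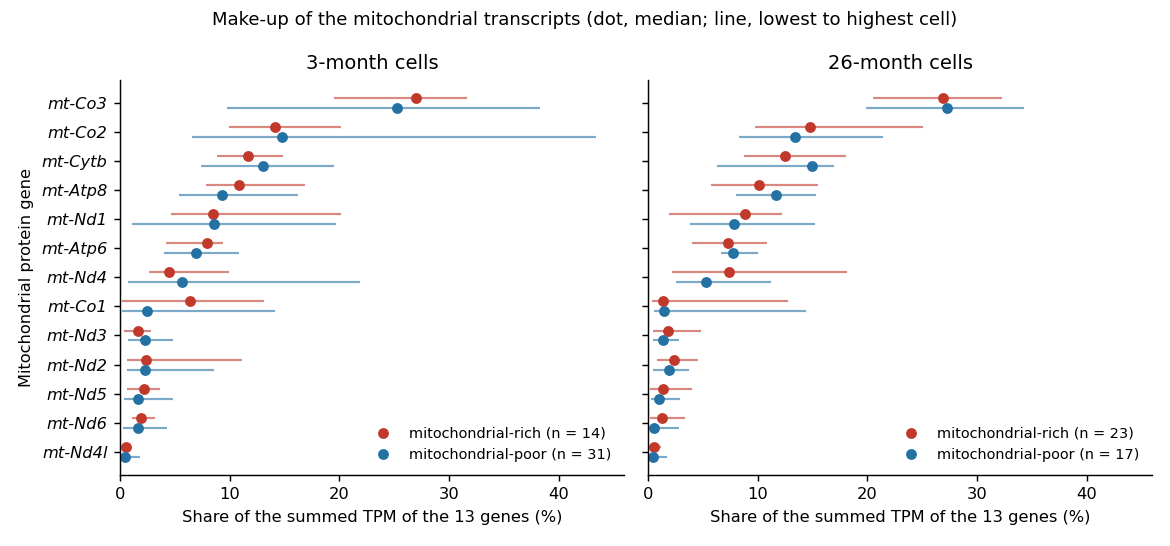
Share of the summed TPM of the 13 mitochondrial protein genes held by each gene (x axis, percent) in rich (red) and poor (blue) cells at each age; dots are medians and lines run from the lowest to the highest cell. mt-Co3 holds a median between 25.2 and 27.2% in all 4 classes, and mt-Co1 has the widest gap between young rich (6.35%) and young poor cells (2.42%).

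Mitochondrial RNA that the rule did not count was also higher in rich cells. The rRNAs and tRNAs of the mitochondrial genome together took a median of 1.36% of deposited TPM in young rich cells (range 0.437 to 4.11%) and 0.425% in young poor cells (0.0982 to 1.33%), and all 14 rich cells lay above the poor median. The old medians were 0.790% (0.0639 to 6.06%) and 0.147% (0.0328 to 1.76%), with 20 of 23 rich cells above the poor median. Within the low stretches the medians were 0.649 and 0.207% in young and 0.445 and 0.0987% in old cells, and within the high stretches 2.05 and 0.899%, and 3.14 and 1.26%. The order of rich over poor therefore held in both kinds of stretch. mt-Rnr2, the large ribosomal RNA, had a log2 ratio of 1.49 in young cells (0.51 and 1.44 within the low and high stretches) and 1.66 in old cells (0.96 and 1.36). mt-Rnr1, the small one, had 1.37 in young (0.20 and 1.34) and 2.08 in old cells (1.12 and 1.91).

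Gm10925, a nuclear gene model on chromosome 1 (24613971 to 24614651, GRCm38) that copies mitochondrial sequence, took a median of 2.72% of deposited TPM in young rich cells against 0.569% in young poor cells, and 3.09% against 0.799% in old ones. Every rich cell lay above every poor cell: the ranges were 1.97 to 5.20% and 0.170 to 0.909% in young cells, and 1.45 to 5.32% and 0.447 to 0.994% in old cells. Reads of the copied genes can fall on either locus, so this value and the mitochondrial share cannot be told apart.

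Insulin mRNA was the largest part of each class. The sum of Ins1 and Ins2 had a median of 48.4% of deposited TPM in young rich and 57.5% in young poor cells, and 49.3 and 53.3% in old ones. With the mitochondrial genes removed and each cell rescaled, the order turned: the median was 617711 nuclear TPM (range 506747 to 749903) in young rich and 600135 (446126 to 817506) in young poor cells, and 652611 (330179 to 804935) and 574510 (362166 to 745416) in old ones. In old cells 18 of 23 rich cells lay above the poor median, in young cells 8 of 14. The ranges of rich and poor cells overlapped at both ages. Ins1 and Ins2 are close copies that can share reads, so the sum is more certain than either gene.

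Over all nuclear genes the rich cells were lower for more genes than they were higher. The ratio is that of mean nuclear TPM with 1 added to each mean, which understates the differences of low genes. Of 11302 genes with a mean of 1 or above in young rich or poor cells, 2239 (19.8%) were higher by 2-fold or more in rich cells and 3665 (32.4%) lower by 2-fold or more. Of 11205 genes in old cells, 1984 (17.7%) were higher and 3860 (34.4%) lower. Widely detected genes reached 2-fold less often. Of 1262 genes detected in 75% of cells, 89 were higher and 131 lower in young cells, and 54 and 157 in old cells. The shares over all genes are thus not a like reference for lists of widely detected genes. The median log2 ratio was -0.24 in young cells (-0.92 within the low stretches and 0.00 within the high ones) and -0.41 in old cells (-0.40 and -0.07), and each gene group below is read against these values. These counts describe size only: with the difference of mean log2 values in place of the ratio of means, 399 genes were higher and 975 lower in young cells, and 89 higher and 2171 lower in old cells. With size factors taken from genes detected in most cells, the median of all genes moved to 0.41 in old cells (-0.24 in young) and 4451 genes were 2-fold higher, so signs in old cells are relative to that shift. On deposited TPM, with the mitochondrial genes left in, the medians of all genes were -0.48 and -0.65.

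**Figure D3:**
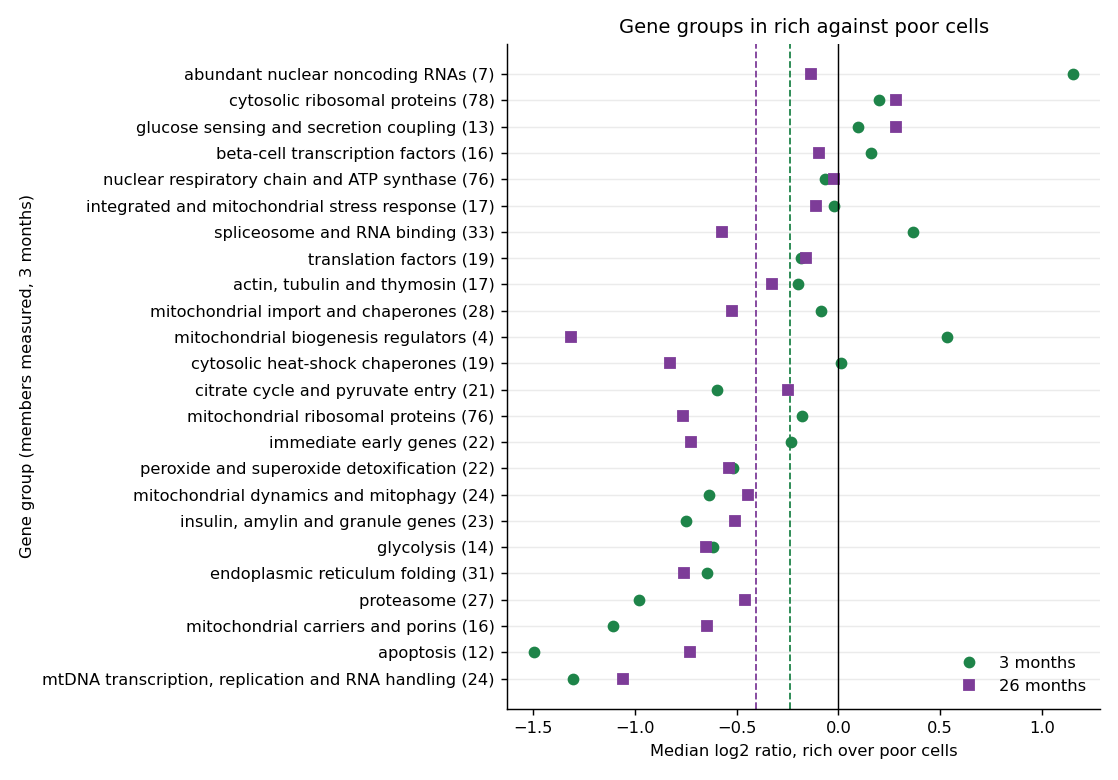
Median log2 ratio of mean nuclear TPM plus 1, rich over poor cells (x axis), for each gene group (y axis, with its measured members) at 3 months (green circles) and 26 months (purple squares). Dashed lines mark the median of all nuclear genes (-0.24 and -0.41); endoplasmic reticulum folding (-0.64 and -0.76, and 0.21 in old cells with size factors) lies to the left of both and cytosolic ribosomal proteins (0.20 and 0.28, and -0.09 and -0.03 on deposited TPM) to the right.

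Genes that fold and process secreted proteins in the endoplasmic reticulum had medians below that of all genes at both ages. Of 31 measured members in young cells 0 were 2-fold higher and 9 (29.0%, against 32.4% of all genes) were 2-fold lower, with a median log2 ratio of -0.64 and 26 of 31 below 0. Of 32 in old cells 0 were higher and 14 (43.8%, against 34.4%) lower, with a median of -0.76 and 28 of 32 below 0. Among the 1262 widely detected genes, 131 were 2-fold lower in young and 157 in old cells. The medians within the low and high stretches were -1.09 and -0.64 in young and -0.82 and -0.77 in old cells. With size factors the old median was 0.21, below the 0.41 of all genes.

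Pdia6, a disulfide isomerase, had a median of 73.4 nuclear TPM (range 7.02 to 858) in young rich and 419 (0.899 to 2614) in young poor cells, a log2 ratio of -1.49, and 2 of 14 rich cells lay above the poor median. In old cells it was 119 (0 to 922) and 673 (126 to 1480), also -1.49, with 3 of 23 rich cells above the poor median. For comparison, among 1258 genes detected in at least 75% of all cells, 3.18% had 2 or fewer young rich cells above the poor median and 6.52% had 3 or fewer old rich cells. The median of these genes was 7 of 14 young and 8 of 23 old rich cells. Their lowest and highest deciles began at 4 and 10 young and at 4 and 14 old rich cells. Such counts for widely detected single genes on nuclear TPM are read against these values. Pgk1, Ddit3 and Lrpprc, given below, were detected in fewer cells and lie outside this set. For genes named as extreme members of their lists, the counts follow in part from that choice. Pdia6 was named here after its values had been seen, as were Hspa5, Hsp90b1 and Pdia4.

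Hspa5, the main chaperone of the endoplasmic reticulum, had a median of 512 nuclear TPM (47.5 to 1112) in young rich and 722 (11.3 to 3207) in young poor cells, and 301 (12.6 to 1375) and 908 (120 to 3199) in old ones. Its log2 ratios were -0.83 and -1.21, and 5 of 14 young and 2 of 23 old rich cells lay above the poor median. Hsp90b1, its partner chaperone, had ratios of -0.57 and -1.02. Herpud1, which helps clear misfolded proteins from the same compartment, had a ratio of -0.43 in young and -3.11 in old cells, with old medians of 5.54 (0 to 302) in rich and 195 (23.9 to 3044) in poor cells. Pdia4, another disulfide isomerase, had ratios of -0.13 and -1.76. Rich and poor ranges overlapped for all 5 genes. The difference between the ages was not tested.

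The list of insulin, amylin and granule genes had medians of -0.75 in young and -0.51 in old cells, with 0 of 23 measured members 2-fold higher at either age and 5 and 3 (21.7 and 13.0%) lower, smaller shares than the 32.4 and 34.4% of all genes. In the low and high stretches the medians were -1.33 and -0.41 in young and -0.34 and -0.65 in old cells, and with size factors the old median was 0.47. Iapp, the gene of amylin, which is released with insulin, had a median of 71138 nuclear TPM (range 15248 to 128085) in young rich and 90334 (18355 to 172920) in young poor cells, and 2 of 14 rich cells lay above the poor median. In old cells it was 50035 (20594 to 146290) and 85751 (27101 to 171921), with 6 of 23 above, near the median of 8 of 23 for widely detected genes. Its log2 ratios were -0.38 and -0.70. With size factors the old ratio was 0.25, below the 0.41 of all genes.

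Of the enzymes that cut prohormones, Pcsk1 was among the low members of the list, while Pcsk2 stood at the list median at both ages. Pcsk1, the first convertase to act on proinsulin, had a median of 25.1 nuclear TPM (0 to 286) in young rich and 105 (0 to 1094) in young poor cells, a ratio of -2.07. At 26 months it was 9.89 (0 to 241) and 151 (0.82 to 548), a ratio of -1.81, and 1 of 14 young and 3 of 23 old rich cells lay above the poor median. Its ratios were negative in the low and high stretches of both ages, between -3.31 and -1.60. Pcsk1 was named as an extreme member of its list, so these signs come from the cells that chose it. Cpe, the carboxypeptidase that trims the cut ends, had ratios of -0.96 and -0.95, and the second convertase Pcsk2 had -0.75 and -0.51. Scg3, a granin that helps sort cargo into granules, had -0.84 and -0.95, and G6pc2, the islet glucose-6-phosphatase that opposes glucokinase, -0.82 (-2.57 and -0.21 within the young low and high stretches) and -0.79. Chga, chromogranin A, had 0.30 in young and -0.25 in old cells, but the young ratio was -1.09 within the low and 0.56 within the high stretches. Slc30a8, the granule zinc transporter, had 0.66 and -0.43, with -0.63 and 0.84 in the young stretches. Ucn3, a peptide of mature beta cells, had 0.26 and -0.19, with -0.39 and 0.85 in the young stretches. Cpe, Pcsk2, Scg3 and Chga were named after their values had been seen.

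Insulin takes more than any other gene, so summed levels of gene groups were also set on a scale without chromosome MT, Ins1, Ins2 and the 2 listed mitochondrial pseudogenes (Gm10925 and Gm10222), as a percent of the remaining TPM. On this scale Iapp and the other granule genes together took a median of 21.6% (range 8.47 to 36.7%) in young rich, 23.7% in young middle and 24.1% (11.8 to 36.0%) in young poor cells. In old cells they took 18.4% (13.3 to 33.9%), 23.9% and 26.1% (14.7 to 35.8%), and 4 of 23 old rich cells lay above the poor median. Without Iapp the granule genes took 2.22 and 2.41% in young rich and poor cells and 2.33 and 2.32% in old ones. The 2 old medians without Iapp were thus level, and middle old cells stood at 3.09%.

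The endoplasmic reticulum list took 1.81% of the remaining TPM in young rich cells (0.659 to 3.07%), 2.06% in middle and 2.26% in poor cells (0.674 to 4.47%), and 1 of 14 rich cells lay above the poor median. At 26 months it took 1.71% (0.853 to 2.87%), 2.13% and 2.22% (1.33 to 4.44%), with 5 of 23 above. The middle cells lay between at both ages. The log2 ratio of the young medians was -0.32, and 0.03 when cells 55 to 86 were left out.

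**Figure D4:**
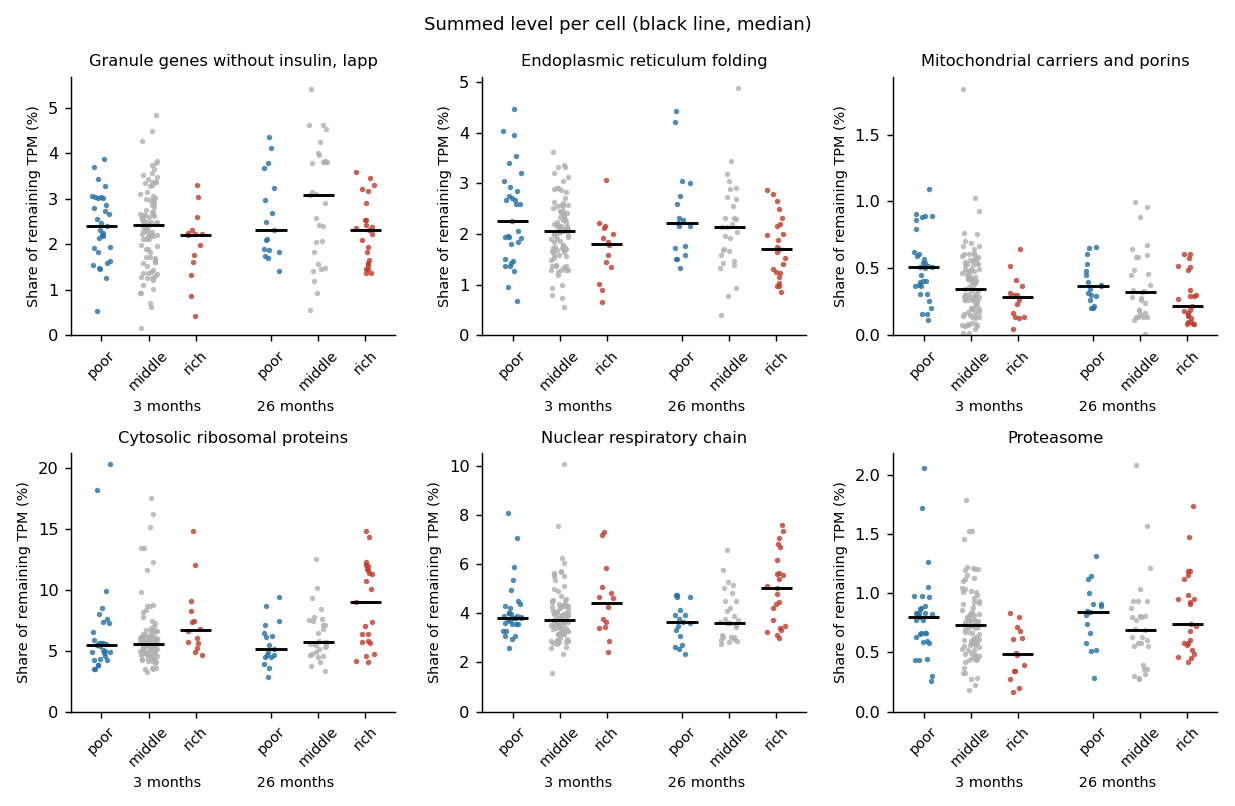
Summed level per cell (y axis, percent of the TPM that remains without chromosome MT, Ins1, Ins2 and 2 mitochondrial pseudogenes) for 6 gene groups in poor (blue), middle (grey) and rich (red) cells at 3 and 26 months; each point is a cell and black lines are medians. Mitochondrial carriers and porins step down from poor to middle to rich at both ages, and cytosolic ribosomal proteins are highest in old rich cells (median 8.96% against 5.15% in old poor cells), an order that turns with insulin kept in the total.

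The nuclear genome encodes the other subunits of the respiratory chain and ATP synthase. All 76 were measured, and their median log2 ratio was -0.06 in young and -0.02 in old cells (0.11 and 0.94 with size factors), with 4 and 4 members 2-fold higher and 10 and 5 lower. The higher members were 5.26 and 5.26%, against 19.8 and 17.7% of all genes. The lower ones were 13.2 and 6.58%, against 32.4 and 34.4%. Of the 1262 widely detected genes, 89 and 54 were higher and 131 and 157 lower. By complex, the young and old medians were -0.11 and -0.13 for complex I, 0.13 and -0.75 for the 4 genes of complex II, -0.17 and -0.03 for complex III, 0.18 and 0.17 for complex IV and -0.22 and 0.27 for ATP synthase. On the remaining scale they took 4.44% (2.43 to 7.32%) in young rich and 3.83% (2.60 to 8.09%) in young poor cells, and 5.05% (3.00 to 7.60%) and 3.65% (2.35 to 4.76%) in old ones, where 17 of 23 rich cells lay above the poor median. The log2 ratio of medians was 0.21 in young and 0.47 in old cells, but with insulin kept in the total -0.04 and -0.22, and on deposited TPM -0.34 and -0.49. With single genes on a log scale the list was lower in rich cells. The median difference of mean log2 values was -0.47 in young and -1.31 in old cells, against -0.13 and -0.37 for all genes. This was not particular to the respiratory chain. In old cells endoplasmic reticulum folding was at -1.35, the proteasome at -1.29 and glycolysis at -1.27, while cytosolic ribosomal proteins were at -0.46.

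The values of single subunits varied. Cox8a, a small subunit of cytochrome c oxidase, had a median of 417 nuclear TPM (0 to 1381) in young rich and 99.4 (2.41 to 482) in young poor cells, a ratio of 1.88, and 12 of 14 rich cells lay above the poor median. At 26 months it was 37.5 (0 to 303) and 162 (16.8 to 360), a ratio of -1.11, with 5 of 23 above. The signs were the same in the low and high stretches of each age, 2.69 and 1.23 in young and -1.36 and -0.65 in old cells. Cox7c, of the same complex, was higher in rich cells at both ages (1.33 and 0.91), but 1 young cell held 62.4% of the rich sum. Uqcrb of complex III had -1.30 in young (-3.50 and -0.48 within the low and high stretches) and -0.03 in old cells, and Atp5e of ATP synthase, named after its values had been seen, -0.56 and 0.73. Whether these genes differ between the ages was not tested.

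Cycs, cytochrome c, which carries electrons between complexes III and IV, was lower in rich cells at both ages. It was detected, at 1 nuclear TPM or above, in 9 of 14 young rich and 22 of 31 young poor cells, with medians of 1.53 (0 to 68.2) and 4.82 (0 to 436) nuclear TPM and a ratio of -2.16. At 26 months it was detected in 14 of 23 rich and 15 of 17 poor cells, with medians of 3.69 (0 to 155) and 14.5 (0 to 284) and a ratio of -2.18. Its ratios in the low and high stretches were -3.00 and -1.12 in young and -1.97 and -1.50 in old cells. With size factors its old ratio was -0.04, against 0.41 for all genes.

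Carriers and porins, which pass metabolites, nucleotides and phosphate through the mitochondrial membranes, had medians of -1.11 and -0.65 (-2.08 and -0.08 within the young low and high stretches, -0.87 and -0.44 within the old ones). Of 16 measured members at each age, 1 was 2-fold higher and 9 lower in young cells, and 2 were higher and 6 lower in old cells. The lower members were 56.2% in young cells, against 32.4% of all genes, and 37.5% in old cells, near the 34.4% of all genes. The higher members were 6.25 and 12.5%, against 19.8 and 17.7%. On the remaining scale the list took 0.282% (0.0483 to 0.644%) in young rich, 0.344% in middle and 0.510% (0.113 to 1.09%) in poor cells, with 2 of 14 rich cells above the poor median. Among old cells it took 0.217% (0.0802 to 0.609%), 0.323% and 0.366% (0.200 to 0.659%), with 6 of 23 above. The old log2 ratio of medians was -0.75, and -0.13 without cells 159 to 191. The young one was -0.85, and -1.54 without cells 87 to 138. Slc25a4, an ADP/ATP carrier, had ratios of -1.89 (-5.10 and -0.41 within the young low and high stretches) and -1.16, with medians of 36.5 (0.51 to 350) and 120 (0 to 2523) nuclear TPM in young rich and poor cells and 28.8 (0 to 607) and 168 (0 to 898) in old ones. Slc25a5, another ADP/ATP carrier and named after its values had been seen, had -1.14 and -0.92, but 0.07 in young cells without cells 1 to 39.

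The citrate cycle and pyruvate entry list stood near all genes in its lower members, 8 and 7 of 21 (38.1 and 33.3%, against 32.4 and 34.4% of all genes). Its 2 and 3 higher members were 9.52 and 14.3%, against 19.8 and 17.7%. Its medians were -0.60 in young cells (-1.66 and -0.16 within the low and high stretches) and -0.25 in old cells (0.26 with size factors). Mdh1, the cytosolic malate dehydrogenase of the malate-aspartate shuttle, had -1.07 and -1.06, with 3 of 14 and 3 of 23 rich cells above the poor median. It was named after its values had been seen. Txn2, mitochondrial thioredoxin, had -2.92 and -1.92, while the list of peroxide and superoxide detoxifying genes had medians of -0.52 and -0.54 (0.27 in old cells with size factors). Ucp2, an uncoupling protein of the inner membrane, had -0.12 in young and -1.72 in old cells, where 2 of 23 rich cells lay above the poor median.

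Genes that copy, transcribe and process mitochondrial DNA and RNA were not higher in the cells with more mitochondrial RNA. Of 28 genes, 24 were measured in young cells, 4 of them 2-fold higher and 13 lower (median -1.30), and 22 in old cells, 3 higher and 12 lower (median -1.06). The lower shares were 54.2 and 54.5%, against 32.4 and 34.4% of all genes. The higher shares were 16.7 and 13.6%, against 19.8 and 17.7%. The genes of this list are sparse: the median difference of mean log2 values was -0.23 and -0.34, and with thresholds of 12 and 7% the medians of the ratios were -0.07 and -0.09. The young median was -0.30 without cells 1 to 39, and -1.95 and -0.0035 within the low and high stretches. On the remaining scale the list took 0.0412% (0.00303 to 0.318%) in young rich and 0.0738% in young poor cells, and 0.0410 and 0.0862% in old ones. Tfam, which packages and transcribes mitochondrial DNA, was detected in 3 of 14 young rich and 7 of 31 young poor cells, and in 4 of 23 old rich and 4 of 17 old poor cells. Polrmt, the mitochondrial RNA polymerase, was detected in 1 of 14 and 4 of 31 young cells and in 0 of 23 and 1 of 17 old cells. Lrpprc, which stabilises mitochondrial mRNA, was detected in 6 of 14 young rich and 14 of 31 young poor cells. Its ratios of means were -2.12 in young and -0.25 in old cells. Its young medians went the other way, 0.72 in rich and 0.45 nuclear TPM in poor cells, with 10 of 14 rich cells above the poor median. Ppargc1a, a co-activator of mitochondrial biogenesis, was detected in 0 of 14, 1 of 31, 1 of 23 and 1 of 17 cells. With so few cells detected, no direction is given for Tfam, Polrmt and Ppargc1a, and none for Lrpprc, whose measures disagree.

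Mitochondrial ribosomal proteins, which are nuclear genes, had medians of -0.18 in young (-2.19 and 0.20 within the low and high stretches) and -0.76 in old cells, with 15 and 8 of 76 measured members 2-fold higher and 21 and 34 lower. The higher members were 19.7 and 10.5%, against 19.8 and 17.7% of all genes. The lower ones were 27.6 and 44.7%, against 32.4 and 34.4%. On the remaining scale the list took 0.720 and 0.740% in young rich and poor cells and 0.598 and 0.665% in old ones.

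Cytosolic ribosomal proteins stood above all genes in the ratio of means but not, in old cells, in the difference of mean log2 values. That difference had a median of -0.05 in young and -0.46 in old cells, against -0.13 and -0.37 for all genes. All 78 were measured, and 48 were above and 30 below 0 in young cells (median 0.20, and -0.09 on deposited TPM). In old cells 47 were above and 31 below (median 0.28, and -0.03 on deposited TPM). Single members differed little, with 3 and 5 at 2-fold higher and 2 and 4 lower. The higher ones were 3.85 and 6.41%, against 19.8 and 17.7% of all genes. The lower ones were 2.56 and 5.13%, against 32.4 and 34.4%. Few 2-fold members were also found among the 1262 widely detected genes, with 89 and 54 higher and 131 and 157 lower. On the remaining scale the 78 genes took a median of 6.71% (range 4.60 to 14.8%) in young rich, 5.56% in middle and 5.48% (3.52 to 20.3%) in poor cells, with 11 of 14 rich cells above the poor median. In old cells they took 8.96% (4.08 to 14.8%), 5.67% and 5.15% (2.81 to 9.36%), with 19 of 23 above. The old medians of rich and poor cells were 11.6 and 6.16% in the low stretches and 5.98 and 4.45% in the high stretches. The log2 ratio of the old medians was 0.80, but -0.11 with insulin kept in the total and -0.46 on deposited TPM.

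Rplp1, an acidic protein of the ribosomal stalk and named after its values had been seen, had a median of 419 nuclear TPM (62.0 to 898) in old rich and 218 (66.2 to 782) in old poor cells, and 19 of 23 rich cells lay above the poor median. In young cells it was 420 (75.4 to 2062) and 362 (22.2 to 1041), with 7 of 14 above. Its ratios were 0.69 and 0.70. Rpl36, of the large subunit, had 1.08 and 0.84, Rps12, of the small subunit, 0.72 and 2.25, and Rpl13a, named after its values had been seen, 0.06 and 1.14. Ribosomal protein genes have many pseudogenes and reads can be shared among them, so these single values are uncertain.

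Ribosomal and respiratory chain mRNAs are short, with median exon lengths of 772.5 and 745 bases in the gene annotation. Protein genes under 1 kb took a median of 41.1% of the remaining TPM in young rich and 41.5% in young poor cells, and 42.5 and 43.6% in old ones. In old cells the medians were 42.5 and 48.7% within the low and 42.4 and 35.3% within the high stretches. Without these 2 lists, the other short genes took 32.2 and 34.6% in young and 30.6 and 36.9% in old cells. The part of transcript length in the results was not tested.

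**Figure D5:**
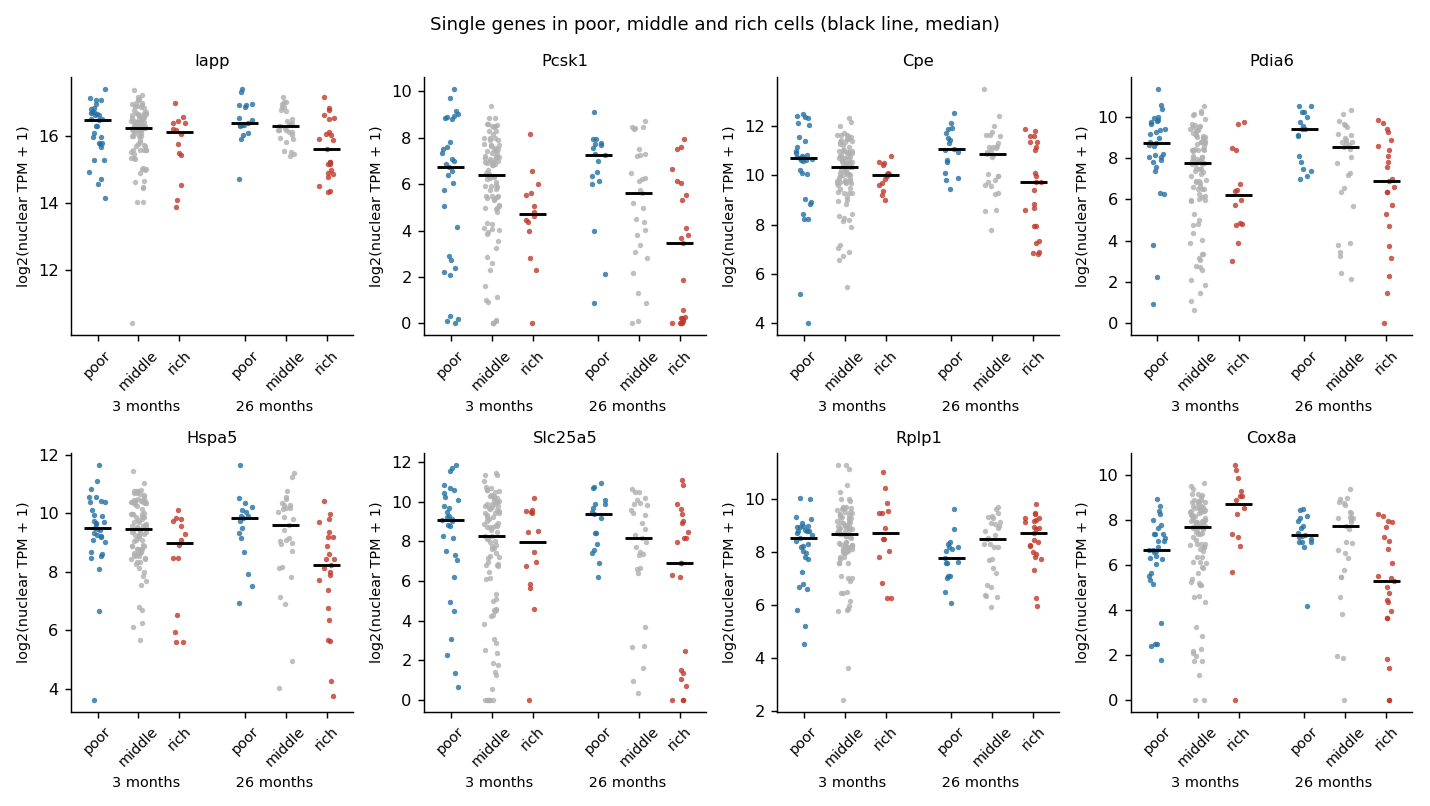
Level of 8 genes in each cell (y axis, log2 of nuclear TPM plus 1) in poor (blue), middle (grey) and rich (red) cells at 3 and 26 months; black lines are medians. Pcsk1, Pdia6 and Slc25a5 have lower medians in rich than in poor cells at both ages, with overlapping ranges, and Cox8a is higher in young rich and lower in old rich cells.

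The proteasome, the complex that degrades tagged proteins, was lower in young rich cells. Of 27 members 1 was 2-fold higher and 13 lower in young cells (median -0.98, with -2.15 and -0.62 within the low and high stretches), and 1 higher and 9 lower in old cells (median -0.46, and 0.46 with size factors). The lower members were 48.1% in young cells, against 32.4% of all genes, and 33.3% in old cells, near the 34.4% of all genes. The higher ones were 3.7 and 3.7%, against 19.8 and 17.7%. On the remaining scale the proteasome took 0.484% (0.168 to 0.834%) in young rich and 0.797% (0.263 to 2.06%) in young poor cells, with 2 of 14 rich cells above the poor median. Among old cells it took 0.740 and 0.847%, with 11 of 23 above.

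Genes of the stress responses were described by list. Cytosolic heat-shock chaperones had medians of 0.01 in young cells (-0.25 on deposited TPM, -1.13 and 0.63 within the low and high stretches, 6 of 19 members 2-fold higher and 3 lower) and -0.83 in old cells (0 of 20 higher, 8 lower). Their higher shares were 31.6 and 0%, against 19.8 and 17.7% of all genes. Their lower shares were 15.8 and 40%, against 32.4 and 34.4%. Hspa8, the constitutive chaperone, had medians of 794 (128 to 2070) and 764 (55.6 to 2920) nuclear TPM in young rich and poor cells, and 192 (0 to 2000) and 915 (133 to 3938) in old ones. It was named after its values had been seen. Dnajb1, a partner of heat-shock protein 70, was detected in 2 of 23 old rich and 10 of 17 old poor cells, and in 6 of 14 and 12 of 31 young ones. Ddit3, a transcription factor of the integrated stress response, had medians of 69.1 (0 to 487) and 3.09 (0 to 122) nuclear TPM in young rich and poor cells, a ratio of 2.09, and 11 of 14 rich cells lay above the poor median. In old cells the medians were 0.55 and 5.21 and the ratio was -0.93. Within the young low stretches the ratio of Ddit3 was 0.10 and within the high stretches 2.26. The list of the integrated and mitochondrial stress response had medians of -0.02 and -0.11 (0.50 and 0.40 with size factors), and -1.03 and 1.39 within the young low and high stretches. Apoptosis genes had medians of -1.49 and -0.73, with 8 of 12 and 5 of 11 measured members 2-fold lower and 1 and 1 higher, and the old median was 0.88 with size factors. The lower apoptosis members were 66.7 and 45.5%, against 32.4 and 34.4% of all genes. The higher ones were 8.33 and 9.09%, against 19.8 and 17.7%.

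The nuclear noncoding RNAs were higher in young rich cells, though they also define the kinds of stretch. All 7 measured members had a positive ratio in young cells (median 1.16), and 3 of 7 in old cells (median -0.14, and 0.72 with size factors). Malat1, which stays in the nucleus, had medians of 2834 (23.5 to 15388) and 315 (15.7 to 7579) nuclear TPM in young rich and poor cells, with ratios of 1.23 and 1.09 in the low and high stretches. In old cells the medians were 829 (36.3 to 11598) and 309 (12.0 to 5923), with ratios of -0.24 and 0.19 in the stretches. Meg3 had ratios of 0.93 and 0.66. The beta cell transcription factors had medians of 0.16 and -0.10 and the glucose sensing list 0.09 and 0.28, and both lists changed sign at both ages under 1 or more of the other scales.

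A rule that asked for 1 sign at both ages, for a mean of 10 nuclear TPM or above and for detection in 25% of cells of the higher class named 15 genes each way. The ratio and the difference of mean log2 also had to share a sign at each age. Of 2264 genes that met the terms of level, detection and sign within each age, 1466 had the same sign at both ages. Of these 236 were higher and 1230 lower in rich cells. Over all genes more were 2-fold lower than higher at each age (32.4 and 34.4% against 19.8 and 17.7%). How much agreement of sign this alone would give was not tested. At least 2-fold at both ages were 46 higher and 359 lower. The lowest 15 were Rassf1, Med24, Alg1, Rnf8, Timm29, Med7, Prmt9, Extl2, Pmvk, Pon3, Rbm7, Pycrl, Ddx31, Ptgr2 and Arf2, with ratios between -5.49 and -3.14. They include Med24 and Med7 of the Mediator complex, Timm29 of the inner membrane import machinery, and Alg1, which adds a mannose to the N-glycan precursor. The highest 15 were Plcxd3, Osbpl8, Crbn, Stx4a, Ints6l, Arl6ip4, Tra2a, Gipr, Acsl5, Nr1d2, Eif4ebp3, Rnu2-10, Map3k2, Esf1 and Limd2, with ratios between 1.66 and 4.92. Gipr is the receptor of the incretin hormone GIP and Stx4a a syntaxin of the plasma membrane. These genes were sparse: in 13 of the highest and 12 of the lowest 15, a single cell held over 50% of the sum of the class with the higher mean at 1 age or both.

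Pmvk, an enzyme of the mevalonate pathway and 1 of the lowest 15, had ratios of -3.41 and -3.73. It was detected in 3 of 14 young rich and 18 of 31 young poor cells, and in 3 of 23 old rich and 9 of 17 old poor cells. The rule chose Pmvk by its ratios in these same cells, so the low detection in rich cells largely follows from the choice. Eif5a, a translation factor, had medians of 8.02 (0 to 97.1) and 42.1 (0 to 322) nuclear TPM in young rich and poor cells and 8.31 (0 to 309) and 94.6 (0.17 to 284) in old ones, with ratios of -2.19 and -1.20. Hnrnpab, an RNA-binding protein, had ratios of -1.57 and -2.33, and Pgk1, a glycolytic kinase, -1.47 and -1.24, with 2 of 14 and 2 of 23 rich cells of Pgk1 above the poor median. Translation factors as a list had medians of -0.18 (-1.21 and 0.53 within the young low and high stretches) and -0.16 (0.90 with size factors). Glycolysis had -0.61 (-1.98 and -0.19) and -0.65 (0.22 with size factors), with 5 and 5 glycolysis members 2-fold lower and 1 and 1 higher. The lower members were 35.7 and 38.5%, near the 32.4 and 34.4% of all genes. The higher ones were 7.14 and 7.69%, against 19.8 and 17.7%.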

How the data were processed

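Expression was measured in 207 single islet cells, 138 from mice aged 3 months and 69 from mice aged 26 months, and grouped by the age in the labels. The authors deposited 1 table of TPM values, 1 column per cell, and 0 columns were left unused. Per the submitters' processing notes, CASAVA 1.8.2 and FastQC were used and the genome build was GRCm38 (mm10). How reads were aligned, counted and annotated is not given in the sources used here. TPM keeps no depth. Of 44448 rows, 39725 were found by NCBI Gene number in RefSeq's GRCm38.p6 table, which gave symbols and coordinates; exon lengths are medians over protein-coding transcripts of GENCODE M21.

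The members and the gene lists were chosen with earlier results of these data known. For nuclear genes, all 37 genes of chromosome MT were dropped and each cell rescaled to 1000000. Ratios are log2((mean of rich + 1)/(mean of poor + 1)), for genes with a mean of 1 or above in either class. No p-value was computed, since each age is 1 sample. Named genes had a mean of 10 or above and detection in at least 25% of cells, and 1 sign in ratio and log difference at both ages (15 each way), besides each list's 2 highest and 2 lowest members, markers at 10 or above and genes fixed by name; others are said to be named after their values were seen. Stretches were least-squares change points on 3 measures within each age, at least 8 cells long with a penalty multiplier of 2; multipliers of 1 and 3 gave the same 8. All cells were kept. Doublets were not called, and 0 pairs of cells held identical values. Of the listed mitochondrial pseudogenes, 2 were in the table. The ratio and the change points were tested on simulated data. Alternatives changed the thresholds, pseudocount, filter, scale and cells; the within-stretch-kind values, the genes detected in 75% of cells and all alternatives for summed levels were chosen after seeing the data. Python 3.11.15, numpy 2.4.6, pandas 2.3.3 and matplotlib 3.10.9 were used, with scipy 1.17.1 for intervals. The result of 1 gene the rule named is not reported here.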

Additional observations from a re-analysis of the deposited data

How the results depend on the processing

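No paired analysis was possible because the labels give each cell its own number, which no cell of the other class or age shares. Depth is not in TPM, so the limit of detection of single genes is unknown. The class sizes depended on the share's definition. With Ins1 and Ins2 taken out of the total, 98 young and 53 old cells were rich and 1 young and 0 old cells were poor. With mitochondrial rRNA and tRNA added, 26 young cells were rich. With the pseudogenes added, 33 young cells were rich and 8 old cells poor.

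Counts of genes at 2-fold moved as well. With thresholds of 12 and 7%, 2361 genes were lower in young cells. With a pseudocount of 10, 722 were higher and 960 lower in young and 522 and 1257 in old cells. With the difference of mean log2 these were 399 and 975, and 89 and 2171. With a mean of 10 or above they were 1212 and 1559, and 901 and 1922. Among genes detected in 75% of cells they were 89 and 131, and 54 and 157. With size factors 4451 were higher in old cells, and within the low stretches 5660 were lower in young cells.

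Of the log2 ratios of summed levels, the old ones on deposited TPM were -0.97 for granule genes without insulin and Iapp, -1.34 for endoplasmic reticulum folding, -0.80 for the proteasome, -0.46 for ribosomal proteins and -0.49 for the respiratory chain. Without chromosome MT alone they were -0.62 for granule genes, -0.11 for ribosomal proteins and -0.22 for the respiratory chain. Granule genes were at 0.63 in old cells with size factors and -0.81 in the young low stretches. Carriers and porins were at -2.11 in the young low stretches, -1.54 without the young cells 87 to 138, -0.13 without the old cells 159 to 191 and -0.10 within cells 139 to 158.

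Some list medians changed sign. With size factors the old medians were 0.22 for glycolysis, 0.88 for apoptosis, 0.21 for endoplasmic reticulum folding and 0.42 for immediate early genes, all beside 0.41 for all genes. Apoptosis in old cells was at 0.25 without insulin in the total, and biogenesis regulators at 1.59 with a mean of 10 or above. Complex II in old cells was at 0.20 within cells 139 to 158 and 0.12 in the high stretches. Glycolysis in young cells was at 0.0028 among genes detected in 75% of cells. Mitochondrial dynamics in young cells was at 0.0753 with thresholds of 12 and 7% and 0.0113 without cells 1 to 39. Of single genes, Slc25a5 in young cells was at 0.0748 without cells 1 to 39, Sst in old cells at -0.31 within cells 139 to 158, and Tfam in young cells at -0.0648 without cells 87 to 138 and -1.04 in the low stretches. The cause of these moves was not tested.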
